A study of Mus musculus with 15 samples.

Results

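The genes described here encode the nuclear subunits of the 5 enzyme complexes of oxidative phosphorylation (OXPHOS), measured by RNA-Seq in the brains of 15 mouse embryos at E16.5. They were chosen by symbol, as the protein-coding nuclear genes whose names begin with Nduf, Sdh, Uqcr, Cox4 to Cox8 or Atp5 and continue as a subunit name. The GENCODE M21 annotation of GRCm38 holds 84 such genes, and 81 of them were among the 19475 genes of the deposited table. The other 3, a second entry of Atp5o, Cox8b and Cox8c, were not analysed here. By complex, there were 36 genes of complex I, 4 of complex II, 8 of complex III, 16 of complex IV and 17 of complex V. Ndufa4 was counted with complex I by its symbol, although its protein is known as a subunit of complex IV.

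The embryos were 5 WT, 5 Tbr1+/K228E and 5 Tbr1K228E/K228E mice on a C57BL/6J background, with 3 females and 2 males of each genotype. The K228E allele is a germline knock-in in exon 1 of Tbr1, a T-box transcription factor gene of cortical neurons, from which a loxP-flanked neomycin cassette had been removed with protamine-Cre, so that every cell carried the mutation. The labels call the tissue brain, the series calls it whole brain and the study calls it forebrain, and nothing in the sources used here says which embryos shared a litter. The authors deposited normalized read counts, that is, Salmon read estimates per gene divided by a size factor for each embryo. The value is not corrected for transcript length, so that a higher value of 1 gene than of another is not by itself a higher level. Levels per kb of transcript are named as such below, and all other values, sums and shares are uncorrected unless length correction is stated. The values of an embryo summed to between 30535909 and 31768508, which reflects the scaling, and the sequencing depth was not given in the table.

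Oxidative phosphorylation is the process by which mitochondria make most of the ATP of a cell. Complexes I and II pass electrons from NADH and succinate to ubiquinone, complexes III and IV pass them on to cytochrome c and oxygen, and complex V, the ATP synthase, uses the resulting proton gradient to make ATP. Most subunits are encoded in the nucleus, and complexes I, III, IV and V also contain subunits encoded by mitochondrial DNA. Developing neurons are known to depend increasingly on this pathway as they mature, whereas dividing progenitors rely more on glycolysis.

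Tbr1 itself had normalized read counts of 3517, 4122, 4871, 2097 and 3079 in WT embryos 1 to 5. It was at 4738, 8543, 6337, 6743 and 4985 in Tbr1+/K228E embryos. In Tbr1K228E/K228E embryos it was at 11530, 7148, 16015, 10671 and 11467, all above the WT embryos, whereas the Tbr1+/K228E embryos overlapped with both other genotypes. Because the allele is a point mutation, this level is not a check of the genotype. The Y-linked genes Ddx3y, Kdm5d, Uty and Eif2s3y separated the labelled males from the labelled females in every embryo.

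Several embryos stood apart in marker genes of brain regions. The summed normalized read count of 17 Hox genes, whose expression marks hindbrain and spinal cord, was 1150, 395, 15.1, 3286 and 8.49 in WT embryos 1 to 5. It was 3963, 3.00, 9.80, 8.01 and 8.73 in Tbr1+/K228E embryos and 576, 260, 11.0, 59.7 and 9.07 in Tbr1K228E/K228E embryos. Hoxb3 had the highest normalized read count of these genes, with a mean of 137 over the 15 embryos, followed by Hoxd3 with 104. All 17 were above 0 in Tbr1+/K228E embryo 1, whereas 16 of 17 were at 0 in Tbr1+/K228E embryo 2. High Hox levels thus occurred in embryos of each genotype, and in bulk samples a larger share of hindbrain or spinal cord cells and more of this RNA per cell cannot be told apart. The same holds for every other cell type marker below. Neuron markers were detected in every embryo, with a summed normalized read count of between 230340 and 279270 for 10 genes led by Tubb3 and Dcx. Forebrain markers, among them Bcl11b, were also present in every embryo, from 25419 in WT embryo 4 to 60643 in Tbr1K228E/K228E embryo 3.

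Most OXPHOS subunit genes were strongly expressed in the embryonic brain. Of the 81 genes, 74 had a mean normalized read count of at least 500 over the 15 embryos, against 9193 of all 19475 genes. The summed value of the 81 genes was 0.663% ± 0.0324 of the total of an embryo in WT, against 0.665% ± 0.0293 in Tbr1+/K228E and 0.659% ± 0.0292 in Tbr1K228E/K228E embryos (SD, n = 5 each). Genes of complex V made up 40.1% of this uncorrected sum, those of complex I 26.7%, complex IV 17.3%, complex III 9.47% and complex II 6.51%. Per kb of transcript, the median level of the genes of a complex was 1835 in complex I, 2773 in complex II, 3337 in complex III, 3749 in complex IV and 3767 in complex V, when the median length of the protein-coding transcripts of each gene was used. With the length of the principal transcript instead, the medians were 1655, 1847, 2224, 3642 and 3390, so that complex IV rather than complex V was highest.

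**Figure D1:**
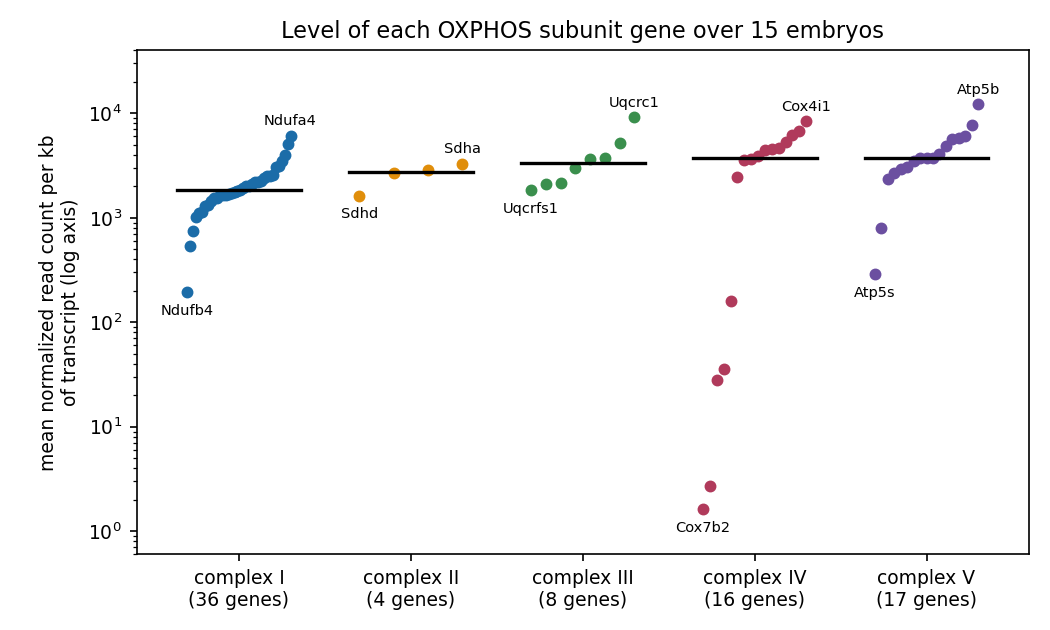
Mean normalized read count per kb of transcript (log axis, median transcript length) for each of the 81 OXPHOS subunit genes, by complex, over 15 embryos; black lines are the medians of each complex. Atp5b had the highest level of all, and complex IV held both a high cluster led by Cox4i1 and 5 isoform genes at low levels, down to Cox7b2.

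The gene with the highest level per kb was Atp5b, which encodes the catalytic β subunit of the ATP synthase, at 12241. Its partner Atp5a1, the α subunit, was at 7724. In complex IV the highest was Cox4i1, a subunit that surrounds the catalytic core, at 8419, and the lowest was Cox7b2 at 1.62. In complex I the highest was Ndufa4 at 6125 and the lowest was Ndufb4, an accessory subunit of the membrane arm, at 196. The value of Ndufb4 is uncertain, because its processed pseudogene Ndufb4c on chromosome 15 was listed with a mean normalized read count of 668, against 190 for Ndufb4, and Salmon divides reads between such copies. In complex II the order depended on the length used, with Sdha highest at 3299 by median length and Sdhb highest at 2702 by principal transcript. In complex III the highest was Uqcrc1 at 9208 by median length, which is short for this gene, and Uqcrh at 4524 by principal transcript.

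No OXPHOS subunit gene differed between genotypes past the threshold. A total of 79 members reached a mean of 5 and entered the limma test, which covered 16507 genes on the scale of log2(normalized read count + 1), with Benjamini-Hochberg adjustment over all of them and a threshold of 0.05. The untested members were Cox6a2 and Cox7b2. In Tbr1+/K228E versus WT embryos 0 of 79 members passed, against 0 of all tested genes (0%), and 0 members had an unadjusted p under 0.05, against 1.79% of all tested genes. The log2 differences of the members lay between -0.12 and 0.08 with a median of 0.01, and 49 of 79 were higher in Tbr1+/K228E embryos. Over all tested genes the median was -0.00.

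In Tbr1K228E/K228E versus WT embryos 0 of 79 members passed the threshold, against 21 of all tested genes (0.127%). Again 0 members had an unadjusted p under 0.05, against 3.23% of all tested genes. The differences lay between -0.30 and 0.10 with a median of 0.01, and 41 of 79 were higher. In Tbr1K228E/K228E versus Tbr1+/K228E embryos 0 of 79 passed, against 13 of all tested genes (0.0788%), and 1 member, Ndufs1, had an unadjusted p under 0.05, against 3.30% of all tested genes. Here 28 of 79 members were higher in Tbr1K228E/K228E embryos, with a median of -0.01. The comparisons share embryos and are not independent of each other.

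Values of the 2 genotypes compared overlapped for all members in every comparison. Among all tested genes, values did not overlap for 0.260% in Tbr1+/K228E versus WT, 0.594% in Tbr1K228E/K228E versus WT and 0.878% in Tbr1K228E/K228E versus Tbr1+/K228E embryos. The 95% confidence interval of the log2 difference lay within a 1.2-fold change in either direction for 73, 71 and 72 of the 79 members in these 3 comparisons. The same held for 8279, 8215 and 7981 of all 16507 tested genes, which were not matched to the members for level. The median half-width of the interval of the members was 0.11 on the log2 scale. Among the 74 members with a mean of at least 500, the interval bounds reached at most 0.32 above and 0.31 below 0 on the log2 scale in any comparison.

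**Figure D2:**
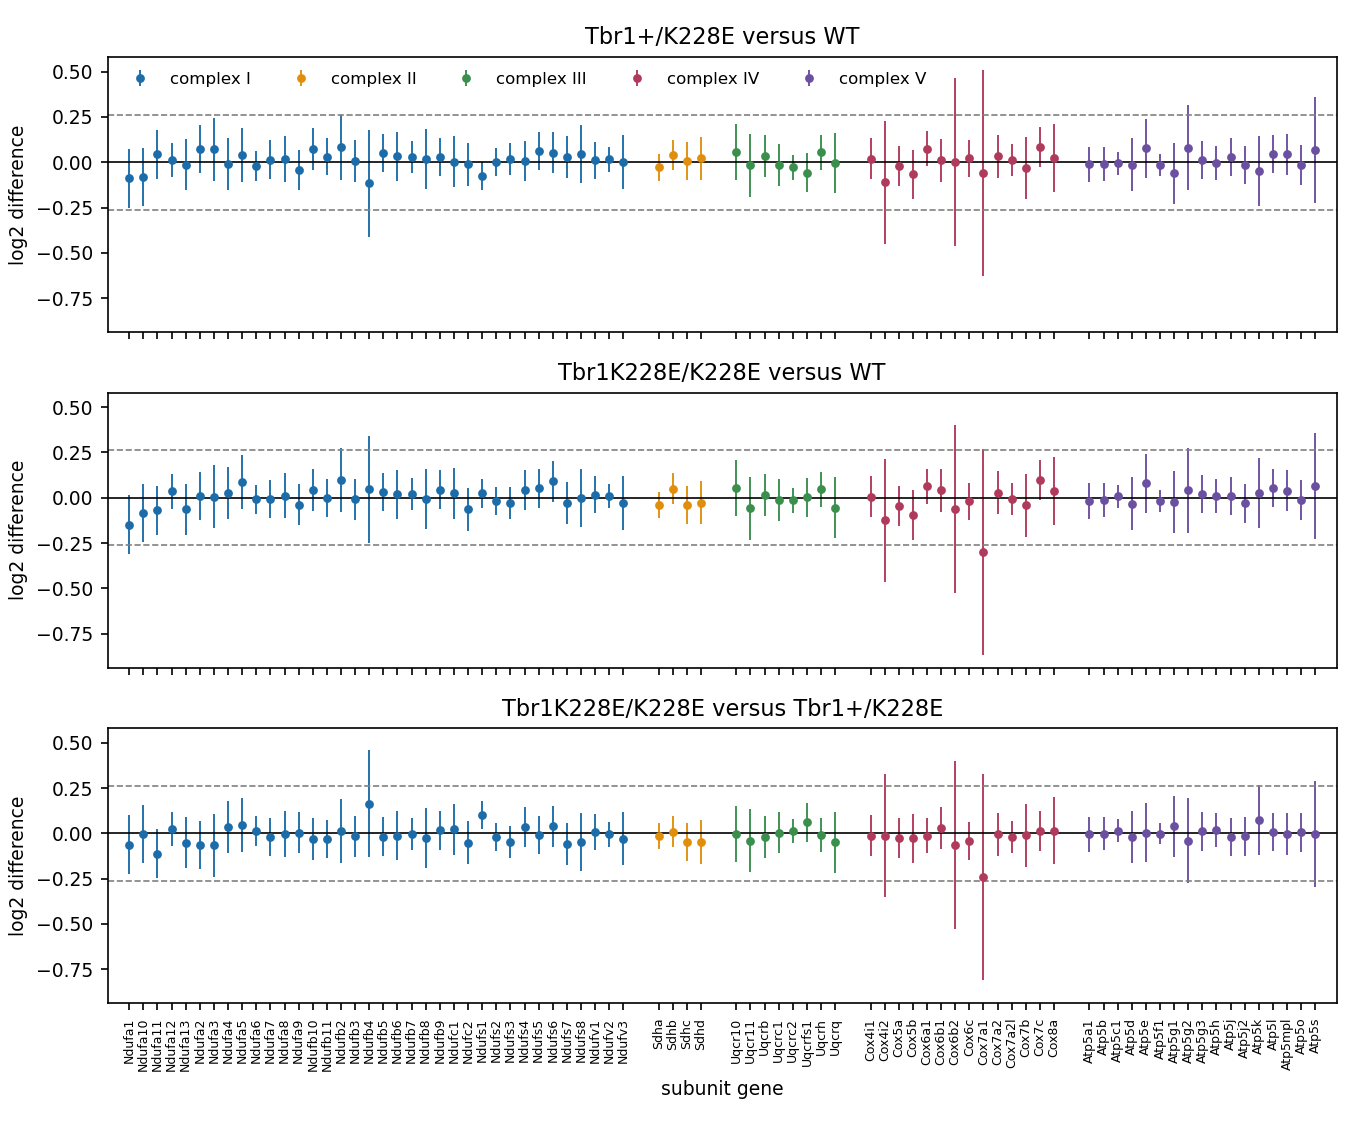
Log2 difference of log2(normalized read count + 1) with its 95% confidence interval from limma for each of the 79 tested OXPHOS subunit genes in the 3 comparisons, colored by complex; dashed lines mark a 1.2-fold change. All intervals include 0 except that of Ndufs1 in Tbr1K228E/K228E versus Tbr1+/K228E embryos, and the widest belong to Cox7a1, Cox6b2, Cox4i2, Ndufb4 and Atp5s, which have low values.

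The direction of the medians depended on single embryos. Without WT embryo 3, WT embryo 5 or Tbr1+/K228E embryo 1, the median of Tbr1+/K228E versus WT became negative, down to -0.01. Without WT embryo 3, WT embryo 5, Tbr1K228E/K228E embryo 1 or Tbr1K228E/K228E embryo 2, the median of Tbr1K228E/K228E versus WT became negative, down to -0.03, and without Tbr1K228E/K228E embryo 1 the number of members higher fell to 23 of 79. The number higher in Tbr1K228E/K228E versus Tbr1+/K228E embryos was 54 without Tbr1+/K228E embryo 1, 45 without Tbr1K228E/K228E embryo 3 and 13 without Tbr1K228E/K228E embryo 1. With Hox and meningeal marker scores as covariates, 63 of 79 members were higher in Tbr1+/K228E (median 0.03) and 59 of 79 in Tbr1K228E/K228E embryos (median 0.03) than in WT embryos, and 0 passed the threshold in either comparison, against 0% and 0.170% of all tested genes. In this fit 3 of 79 members (Cox6a1, Ndufb2 and Ndufs5) had an unadjusted p under 0.05 in Tbr1+/K228E versus WT embryos, against 2.28% of all tested genes. In Tbr1K228E/K228E versus WT embryos 7 of 79 did (Atp5e, Cox6a1, Cox7c, Cox8a, Ndufb2, Ndufs6 and Uqcr10), against 4.36% of all tested genes. All of them were higher in the mutant embryos, with log2 differences of 0.09 to 0.17 and a smallest adjusted p of 0.596 (limma, Ndufb2 in Tbr1K228E/K228E versus WT embryos).

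The markers of other cell types gave 0 calls by limma in either comparison with WT embryos, against 0% and 0.127% of all tested genes, so that the counts below give only the direction of the means. All 14 markers of dividing cells, led by Mki67, had higher means in Tbr1+/K228E than in WT embryos (median 0.11 on the log2 scale), whereas 3 of 14 did in Tbr1K228E/K228E embryos (median -0.10). Of 13 meningeal markers, led by Zic1 and Col3a1, 12 were higher in Tbr1+/K228E (median 0.53) and 2 in Tbr1K228E/K228E embryos (median -0.77). Of 14 tested Hox genes, 2 and 1 were higher, with medians of -1.79 and -1.52. Choroid plexus markers, led by Ttr, were higher for 6 of 8 and 2 of 8 genes, with medians of 0.93 and -0.10, and erythroid markers, led by Hbb-bs and Hba-a2, for 7 of 9 and 3 of 9, with medians of 0.32 and -0.08. Of 7 endothelial markers 6 and 1 were higher, of 8 microglial markers 3 and 1, of 8 markers of radial glia and astrocytes 2 and 2, and of 7 muscle and heart markers 3 and 3. The forebrain markers were higher for 10 of 10 and 9 of 10 genes, with medians of 0.20 and 0.11, and the neuron markers for 2 of 10 and 7 of 10, with medians of -0.04 and 0.04. The mean log2 deviation of the meningeal markers from their 15-embryo mean was -3.39 in WT embryo 3. It was -2.72 and -2.92 in Tbr1K228E/K228E embryos 3 and 4, and -0.58 to 1.54 in the other embryos. For the choroid plexus markers it was lowest in Tbr1K228E/K228E embryo 4 (-3.06) and WT embryo 3 (-2.32). In Tbr1K228E/K228E versus Tbr1+/K228E embryos the markers also gave 0 calls, against 0.0788% of all tested genes. Means were higher in Tbr1K228E/K228E embryos for 10 of 10 neuron markers (median 0.08) and 7 of 14 Hox genes (-0.10). They were lower for 14 of 14 markers of dividing cells (-0.20), 13 of 13 meningeal (-1.25) and 7 of 8 choroid plexus markers (-1.02). Also lower were 7 of 9 erythroid (-0.40) and 8 of 10 forebrain markers (-0.07). The part of these cell types in the values of the OXPHOS subunit genes was not tested beyond the fit with covariates.

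Among the 36 genes of complex I, which oxidizes NADH, 27 were higher in Tbr1+/K228E and 20 in Tbr1K228E/K228E embryos than in WT embryos. The member with the smallest p was Ndufs1, an iron-sulfur subunit of the NADH-oxidizing arm. Its normalized read counts were 3415, 3345, 3156, 3439 and 3364 in WT embryos. They were 3155, 3040, 3136, 3311 and 3213 in Tbr1+/K228E embryos and 3354, 3424, 3293, 3640 and 3295 in Tbr1K228E/K228E embryos. The Tbr1+/K228E embryos tended to have the lower values, but embryo 4 of that genotype exceeded 2 of the Tbr1K228E/K228E embryos. The log2 difference was 0.10 (SE 0.04) in Tbr1K228E/K228E versus Tbr1+/K228E embryos (limma, adjusted p = 0.996) and the two-sided exact permutation test of this gene alone gave p = 0.0238. In Tbr1+/K228E versus WT embryos it was -0.08 (SE 0.04; limma, adjusted p = 0.999) with an exact permutation p of 0.0397. Ndufs1 is named because it had the smallest p of its complex, so that these single-gene p-values are not corrected for that choice.

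Ndufv1, which carries the flavin that accepts electrons from NADH, had means of 2896 ± 198 in WT, 2912 ± 46.3 in Tbr1+/K228E and 2930 ± 156 in Tbr1K228E/K228E embryos (SD, n = 5 each). Ndufa1, a small accessory subunit encoded on the X chromosome, had the smallest p of complex I in Tbr1K228E/K228E versus WT embryos. It was at 793, 725, 728, 811 and 730 in WT, at 809, 601, 768, 702 and 695 in Tbr1+/K228E and at 716, 751, 620, 649 and 682 in Tbr1K228E/K228E embryos. Of the Tbr1K228E/K228E embryos, 4 of 5 lay below every WT embryo, and embryo 2 lay within the WT range. The log2 difference was -0.15 (SE 0.08; limma, adjusted p = 1.000; exact permutation p = 0.0556). The other X-linked member of the complex, Ndufb11, was at 1677 ± 59.6, 1715 ± 108 and 1677 ± 82.3 in the same order of genotypes (SD, n = 5 each). Over the whole complex, the differences lay between -0.12 (Ndufb4) and 0.08 (Ndufb2) in Tbr1+/K228E and between -0.15 (Ndufa1) and 0.10 (Ndufb2) in Tbr1K228E/K228E versus WT embryos.

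Complex II, or succinate dehydrogenase, has only nuclear subunits and also belongs to the citric acid cycle. Sdha, its flavoprotein, was at 6312, 6180, 6095, 6154 and 5635 in WT, at 6004, 5680, 6068, 6076 and 5929 in Tbr1+/K228E and at 5743, 5832, 5922, 6033 and 5963 in Tbr1K228E/K228E embryos. The values of the genotypes overlapped, and the log2 differences from WT were -0.03 (SE 0.03) and -0.04 (SE 0.03). Sdhb, the iron-sulfur subunit, was at 3022 ± 125 in WT, 3107 ± 102 in Tbr1+/K228E and 3127 ± 140 in Tbr1K228E/K228E embryos (SD, n = 5 each). It had the smallest p of the complex in both comparisons with WT, at log2 differences of 0.04 and 0.05 (SE 0.04 each; limma, adjusted p = 0.999 and 1.000). The membrane anchors Sdhc and Sdhd differed from WT by 0.01 and 0.02 in Tbr1+/K228E and by -0.04 and -0.03 in Tbr1K228E/K228E embryos, on the log2 scale.

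Of the 8 genes of complex III, which passes electrons from ubiquinol to cytochrome c, 3 were higher in Tbr1+/K228E and 4 in Tbr1K228E/K228E embryos than in WT embryos. The core protein gene Uqcrc1 was at 5033, 5144, 4708, 5089 and 4705 in WT, at 5540, 4361, 4866, 4744 and 4955 in Tbr1+/K228E and at 5200, 4907, 4885, 4828 and 4656 in Tbr1K228E/K228E embryos. Both the highest and the lowest of these values came from Tbr1+/K228E embryos, from embryo 1 and embryo 2. Uqcrfs1, the Rieske iron-sulfur protein, was at 2519 ± 113 in WT, 2420 ± 121 in Tbr1+/K228E and 2525 ± 166 in Tbr1K228E/K228E embryos (SD, n = 5 each). It had the smallest p of the complex in Tbr1K228E/K228E versus Tbr1+/K228E embryos, with a log2 difference of 0.06 (SE 0.05; limma, adjusted p = 0.996). Uqcrh, the hinge protein next to cytochrome c1, had the smallest p in both comparisons with WT, at 0.05 (SE 0.04; limma, adjusted p = 0.999 and 1.000).

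Complex IV, or cytochrome c oxidase, reduces oxygen. Of its 14 tested genes, 9 were higher in Tbr1+/K228E and 6 in Tbr1K228E/K228E embryos than in WT embryos. Cox4i1 was at 6584, 6670, 5827, 6427 and 5694 in WT, at 6900, 6007, 6258, 5985 and 6449 in Tbr1+/K228E and at 6754, 6139, 6149, 6133 and 6103 in Tbr1K228E/K228E embryos. In both mutant genotypes embryo 1 had the highest value, and the log2 differences from WT were 0.02 and 0.01 (SE 0.05 each). Cox5a, another subunit around the catalytic core, was at 2902 ± 141, 2868 ± 198 and 2811 ± 133 in WT, Tbr1+/K228E and Tbr1K228E/K228E embryos (SD, n = 5 each). Cox7c, one of the smallest subunits, was at 2063, 2081, 1935, 2036 and 1896 in WT, at 2179, 2147, 2111, 1981 and 2176 in Tbr1+/K228E and at 2319, 2267, 2169, 2064 and 1902 in Tbr1K228E/K228E embryos. Of each mutant genotype, 1 or 2 embryos lay within the WT range and the others above it. The log2 differences from WT were 0.08 and 0.10 (SE 0.05 each), with exact permutation p-values of 0.0635 and 0.135 and limma adjusted p-values of 0.999 and 1.000. Cox6a1 had the smallest p of the complex in Tbr1+/K228E versus WT embryos, at 0.08 (SE 0.04; limma, adjusted p = 0.999).

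Complex V makes ATP. Of its 17 genes, 7 were higher in Tbr1+/K228E and 10 in Tbr1K228E/K228E embryos than in WT embryos. Atp5b was at 24461, 24560, 22443, 24572 and 21908 in WT, at 24256, 22266, 23526, 23366 and 23562 in Tbr1+/K228E and at 24889, 22381, 23141, 22640 and 23827 in Tbr1K228E/K228E embryos. The values of each genotype covered nearly the same range, and the log2 difference from WT was -0.01 in both mutant genotypes (SE 0.04 each). Atp5a1 was at 20002 ± 885, 19847 ± 1167 and 19759 ± 774 (SD, n = 5 each). The members with the smallest p of the complex were Atp5e, the ε subunit, in Tbr1+/K228E versus WT (0.08, SE 0.08), Atp5l, the g subunit, in Tbr1K228E/K228E versus WT (0.06, SE 0.05) and Atp5k, the e subunit, in Tbr1K228E/K228E versus Tbr1+/K228E embryos (0.07, SE 0.09), with limma adjusted p-values of 0.999, 1.000 and 0.996. Atp5s, a coupling factor rather than a structural subunit, had the lowest level per kb of the complex (290) and normalized read counts of 203 ± 35.2, 211 ± 19.7 and 212 ± 35.1 (SD, n = 5 each).

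**Figure D3:**
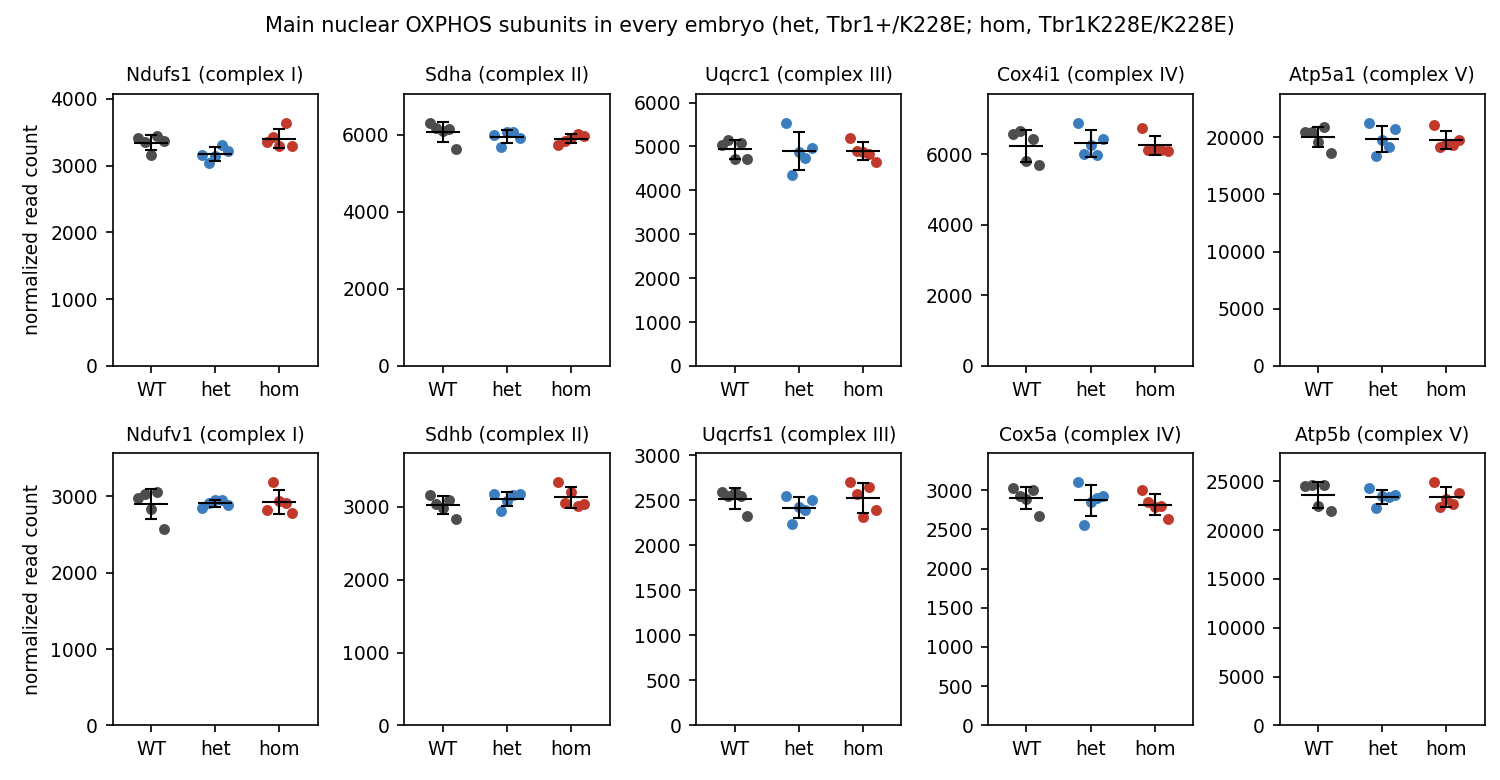
Normalized read counts of 10 main nuclear subunits, 2 of each complex, in every embryo; points are embryos 1 to 5 from left to right, and bars are the mean ± SD (n = 5). The genotypes overlap for every gene, with Ndufs1 lowest in Tbr1+/K228E embryos.

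Several subunits of complex IV are encoded by alternative genes for different tissues, and the embryonic brain expressed mainly the ubiquitous ones. Cox4i1 made up 99.5% of the length-corrected level of the Cox4i pair in WT embryos, against 0.458% ± 0.0543 (SD, n = 5) for Cox4i2, which is best known from lung. The share of Cox4i2 was 0.422% ± 0.0913 in Tbr1+/K228E and 0.417% ± 0.0415 in Tbr1K228E/K228E embryos (SD, n = 5 each). Cox6b2, the testis form of Cox6b, made up 2.54% ± 0.519, 2.51% ± 0.438 and 2.38% ± 0.512 of its pair in WT, Tbr1+/K228E and Tbr1K228E/K228E embryos (SD, n = 5 each). Cox7a1, the heart and muscle form, made up 0.971% ± 0.392, 0.884% ± 0.250 and 0.731% ± 0.164 of the pair with Cox7a2 (SD, n = 5 each).

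The low isoforms differed little in absolute terms. Cox7a1 was at 15.1, 12.3, 10.7, 8.38 and 21.9 in WT, at 11.5, 17.3, 10.8, 15.1 and 9.11 in Tbr1+/K228E and at 10.4, 11.3, 7.45, 9.89 and 13.7 in Tbr1K228E/K228E embryos. These values overlapped, and its log2 difference of -0.30 (SE 0.27) in Tbr1K228E/K228E versus WT embryos was the largest in size of any member in that comparison, with a limma adjusted p of 1.000. Cox6a2, the heart and muscle form of Cox6a, was at most 6.19 in any embryo and listed at 0 in 3 of them. Cox7b2, the testis form of Cox7b, was at most 3.68 and listed at 0 in 8 embryos, including 4 of 5 Tbr1K228E/K228E embryos. Cox7a2l, which is known as a factor in the assembly of complexes III and IV into supercomplexes, was at 3931 ± 202, 3961 ± 64.2 and 3906 ± 202 in the 3 genotypes (SD, n = 5 each). Cox7b, on the X chromosome, was at 2507 ± 162, 2457 ± 210 and 2446 ± 300, and Cox8a at 2856 ± 330, 2895 ± 288 and 2925 ± 289 (SD, n = 5 each).

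The genes Atp5g1, Atp5g2 and Atp5g3 encode the same mature c subunit of the ATP synthase ring with different import sequences. Atp5g3 was at 4176 ± 286 in WT, 4205 ± 184 in Tbr1+/K228E and 4236 ± 207 in Tbr1K228E/K228E embryos. Atp5g2 was at 1763 ± 222, 1868 ± 251 and 1818 ± 251.8, and Atp5g1 at 2175 ± 263, 2079 ± 171 and 2133 ± 150 (SD, n = 5 each). Atp5g3 made up 60.4% ± 2.24 of the length-corrected level of the 3 genes in WT, 59.7% ± 2.56 in Tbr1+/K228E and 60.3% ± 2.32 in Tbr1K228E/K228E embryos (SD, n = 5 each), with differences smaller than the spread between embryos. In WT embryos Atp5g2 made up 31.2% ± 2.42 and Atp5g1 8.43% ± 0.654 (SD, n = 5 each), so that Atp5g1 was above Atp5g2 in read counts but below it after correction for the length of the principal transcript. This order and the Atp5g1 share rest on an annotated length of 2675.5 bases for Atp5g1, against 586 for Atp5g2 and 718.5 for Atp5g3, and are uncertain.

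**Figure D4:**
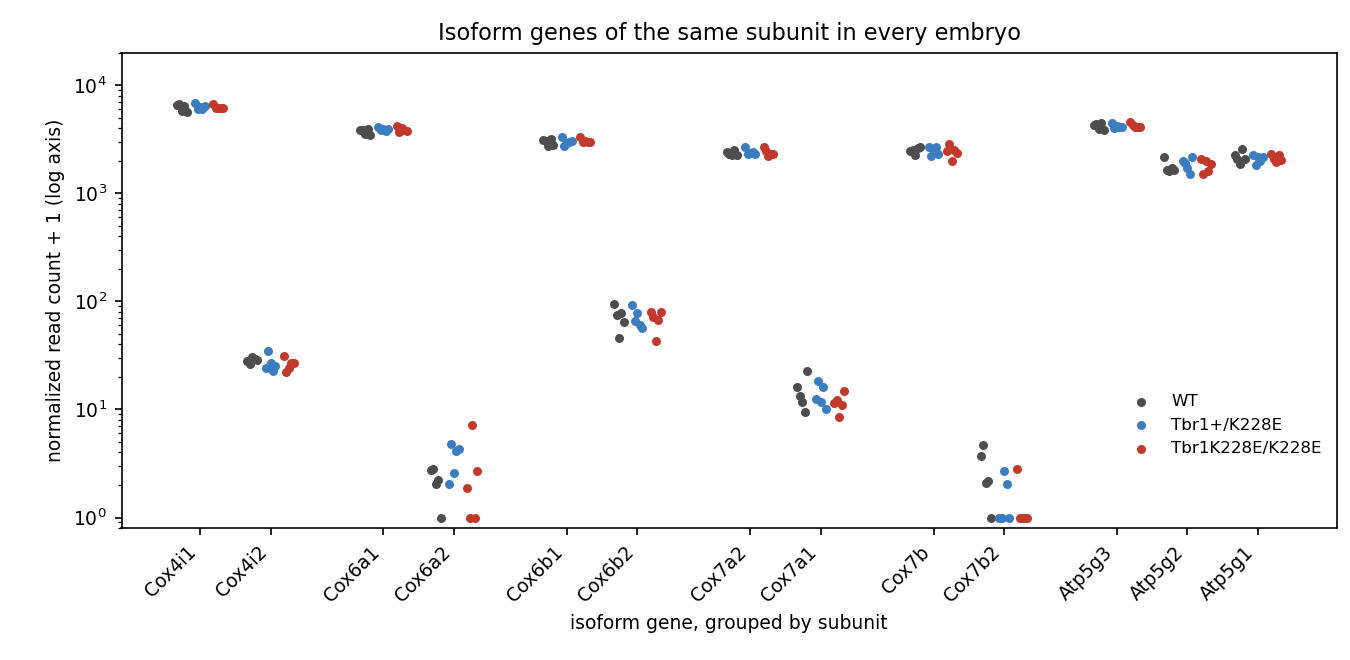
Normalized read count + 1 (log axis) of isoform genes that encode the same subunit, in every embryo and colored by genotype. In each Cox family 1 gene lies far above the other in all 15 embryos, as Cox7b (means of 2446 to 2507) above Cox7b2, whereas the 3 Atp5g genes lie closer together on this scale, which is not corrected for transcript length.

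Individual embryos differed from each other in most subunit genes at once. For each of the 77 members with a mean of at least 50, the log2 deviation of each embryo from the gene's mean over the 15 embryos was computed and averaged over the members. This mean deviation was 0.07, 0.01, -0.08, 0.05 and -0.07 in WT embryos 1 to 5. It was 0.11, -0.07, 0.02, -0.03 and -0.00 in Tbr1+/K228E embryos and 0.10, 0.01, -0.06, -0.03 and -0.03 in Tbr1K228E/K228E embryos. Each genotype thus held high and low embryos, and the averages of the 3 genotypes lay within 0.01 of 0. From the lowest to the highest embryo the range was 0.19 on the log2 scale, or 1.14-fold.

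Of the 77 members, 27 had their highest value in Tbr1K228E/K228E embryo 1 and 25 in Tbr1+/K228E embryo 1. A total of 73 and 72 of 77 members were above their own mean in these embryos. By contrast, 22 had their lowest value in WT embryo 5, 16 in Tbr1+/K228E embryo 2, 12 in Tbr1K228E/K228E embryo 3 and 10 in WT embryo 3. All 5 complexes were above 0 in the 4 highest embryos and below 0 in the 4 lowest. The range between embryos was widest in complex IV, at 0.29 on the log2 scale (1.23-fold), and narrowest in complex II, at 0.13 (1.097-fold). Complexes I, III and V had ranges of 0.18, 0.21 and 0.19.

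**Figure D5:**
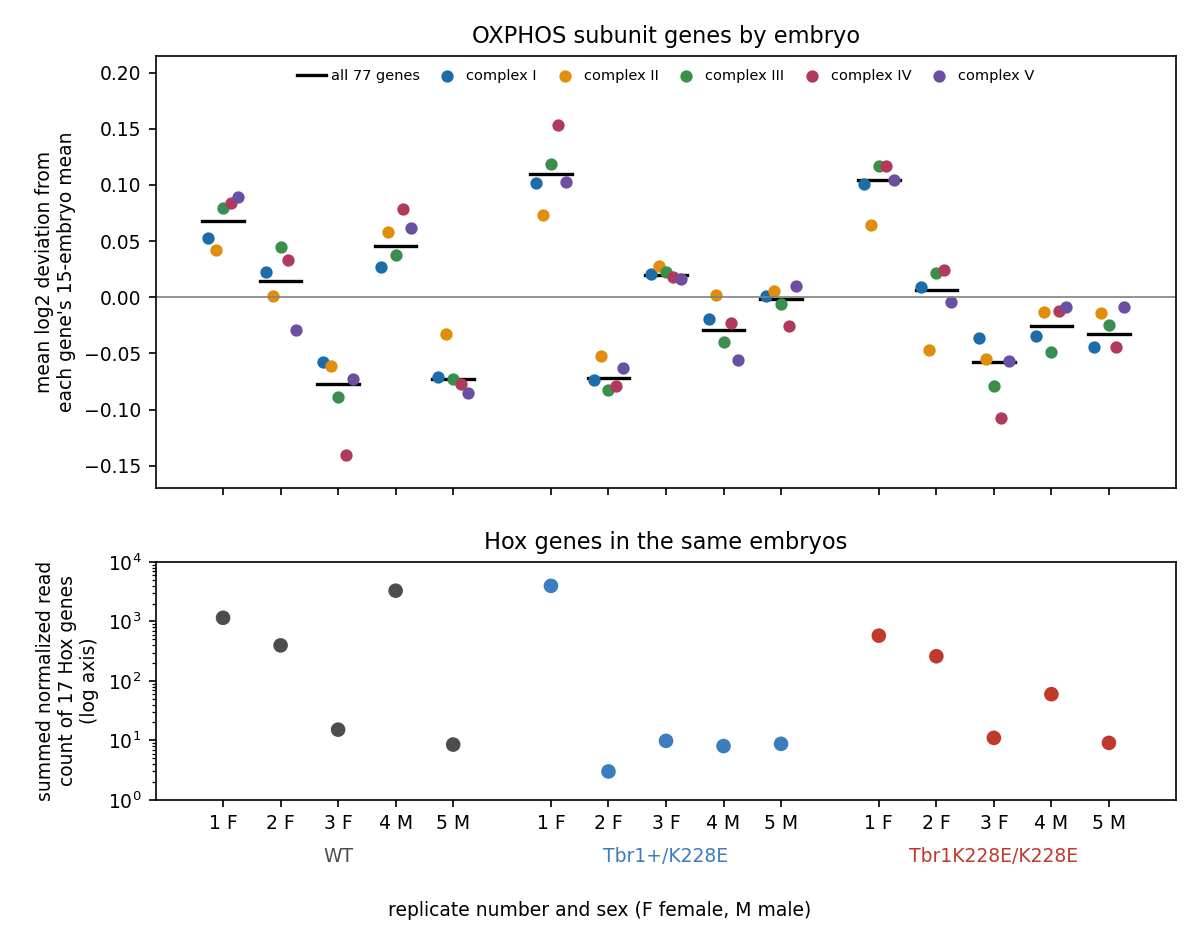
Top, mean log2 deviation of OXPHOS subunit genes from their 15-embryo means, for all 77 genes (black lines) and by complex (points), in each embryo. Bottom, summed normalized read count of 17 Hox genes (log axis) in the same embryos; Tbr1+/K228E embryo 1, Tbr1K228E/K228E embryo 1, WT embryo 1 and WT embryo 4 are the 4 highest in both panels.

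As a description, Pearson's r over the 15 embryos was computed for each of the 2926 pairs of members on the log2 scale, after subtraction of the genotype means. Its median was 0.51, and 94% of the pairs were positive. The median was 0.47 for pairs within a complex and 0.53 for pairs between complexes, and thus no higher within than between complexes. Over the pairs of all genes above that minimum mean the median was -0.00. All values of an embryo share 1 library and 1 size factor, and the pairs are not independent. The range between embryos was 0.17 to 0.23 on the log2 scale when the values were rescaled to the upper quartile, quantile normalized, or corrected for transcript length or GC content.

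The median SD of the 77 members within genotypes was 0.08 on the log2 scale, against 0.12 for all 13542 genes above the same minimum mean of 50, and 15 of the 77 members lay above that median of all genes. Most members have high values, and at a mean of 500 or more the median was 0.08 for 74 members and 0.10 for 9193 genes, with 22 members above it. No test of this difference was made. The steadiest was Atp5f1, a peripheral stalk subunit of complex V, with an SD of 0.03 and all 15 values between 5689 and 6192. Next came Ndufv2, an iron-sulfur subunit of complex I, and Atp5c1, the γ subunit of complex V, both at 0.04. Cox6b2, Ndufb4, Atp5s and Atp5g2 varied most, with SDs of 0.35, 0.22, 0.22 and 0.19.

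The 4 embryos with the highest mean deviation were also the 4 with the highest Hox sum, as given above. Under upper-quartile rescaling, Tbr1+/K228E embryo 3 took the place of WT embryo 4 among the 4 highest. The forebrain marker sum was highest in Tbr1K228E/K228E embryo 3 (60643), Tbr1+/K228E embryo 2 (60633) and WT embryo 3 (59290), which were among the 4 embryos with the lowest mean deviation. The other of these 4, WT embryo 5, had a forebrain marker sum of 39216, which only 3 of the 15 embryos were below. The mean log2 deviation of the neuron markers was highest in WT embryo 4 (0.33), Tbr1+/K228E embryo 1 (0.14) and Tbr1K228E/K228E embryo 1 (0.12). It was lowest in Tbr1+/K228E embryo 2 (-0.29) and WT embryo 3 (-0.13), but 0.09 in Tbr1K228E/K228E embryo 3. That of the glycolysis genes was highest (0.27, 0.11 and 0.04) and lowest (-0.18 and -0.07) in the same embryos, and -0.00 in WT embryo 1. The part of these tissues and genes in the deviations was not tested. Each genotype held embryos with high and with low mean deviation.

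The promoters of the members were searched for short strings that resemble the binding motifs of factors known to act on OXPHOS genes. RefSeq promoters (GRCm38.p6, 250 bases before to 50 after the gene start) were found for 67 of the 81 members and for 17492 protein-coding genes. The NRF1-like string GCGCANGCG occurred on either strand in 20 of 67 members (29.9%), against 9.63% of all promoters. The ETS-like string CCGGAAG, which resembles the motif of the factor GABPA, occurred in 16 (23.9%), against 12.9% of all. The YY1-like string AANATGGCG occurred in 10 (14.9%), against 3.64% of all. At least 1 of the 3 strings was found in 38 members (56.7%), against 22.7% of all promoters. The NRF1-like string is nearly its own reverse complement, so that a single site can match on both strands. A match describes the letters only and does not show that a factor binds there.

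The NRF1-like string was found in promoters of every complex, in 8 of 32 genes of complex I, 2 of 3 of complex II, 2 of 5 of complex III, 1 of 12 of complex IV and 7 of 15 of complex V. The YY1-like string was found in 7 genes of complex I and 3 of complex V. The following windows of 30 bases, each upstream of the annotated gene, show a match for each complex and for each string, 5′ to 3′ on the strand of the gene, with the matching letters in capitals. They come from complex I (Ndufs5, chr4:123718265-123718294, minus strand, and the X-linked Ndufb11, chrX:20617811-20617840, minus strand), complex II (Sdha, chr13:74350319-74350348, minus strand), complex III (Uqcr11, chr10:80406868-80406897, minus strand), complex IV (Cox6a1, chr5:115349101-115349130, minus strand) and complex V (Atp5h, chr11:115420041-115420070, minus strand).
Ndufs5, NRF1-like: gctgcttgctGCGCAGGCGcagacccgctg
Sdha, NRF1-like: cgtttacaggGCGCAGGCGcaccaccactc
Cox6a1, NRF1-like: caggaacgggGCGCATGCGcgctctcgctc
Atp5h, NRF1-like: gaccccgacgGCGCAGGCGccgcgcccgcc
Uqcr11, ETS-like: tctctcctccCCGGAAGtagatgtcaatgt
Ndufb11, YY1-like: tcaccaacacAAAATGGCGacgagaagaga

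Other genes of the pathway also gave 0 calls in any of the 3 genotype comparisons, with limma and the same threshold, against 0%, 0.127% and 0.0788% of all tested genes. At these shares, lists of this size would hold few or no calls. The 13 subunits encoded by mitochondrial DNA made up between 2.31% and 2.63% of the total normalized read count of an embryo. Of these, 6 were higher in Tbr1+/K228E and 11 in Tbr1K228E/K228E embryos than in WT embryos, with medians of -0.00 and 0.03 on the log2 scale. The highest normalized read counts were those of mt-Co1, a catalytic subunit of complex IV, at 228140 ± 10148, 230110 ± 6792 and 234530 ± 4313, and mt-Cytb of complex III, at 93725 ± 6364, 93363 ± 4154 and 95114 ± 2091, in WT, Tbr1+/K228E and Tbr1K228E/K228E embryos (SD, n = 5 each). For both genes the means of the genotypes differed by less than the SD of the WT embryos.

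Of 47 tested assembly factors of the complexes, 22 were higher in Tbr1+/K228E and 26 in Tbr1K228E/K228E embryos than in WT embryos, with medians of -0.00 and 0.02. Of 15 regulators of mitochondrial biogenesis, 9 and 5 were higher, with medians of 0.02 and -0.04. Their differences from WT lay between -0.22 and 0.11 in Tbr1+/K228E and between -0.30 and 0.13 in Tbr1K228E/K228E embryos. Of the genes that were named after their values had been seen, the coactivator Ppargc1a differed from WT by -0.19 and -0.17 on the log2 scale, Nrf1 by 0.06 and -0.04, and Gabpa by 0.02 and -0.04. Among 9 tested subunits, carriers and regulators outside the naming rule, such as Cyc1 of complex III, 6 and 5 were higher. The mobile carrier cytochrome c, encoded by Cycs, differed by 0.02 and 0.01. Ndufab1, the acyl carrier protein of complex I, differed by -0.12 and -0.19 (limma, adjusted p = 0.999 and 1.000). Its unadjusted p by limma was 0.0963 in Tbr1+/K228E and 0.0140 in Tbr1K228E/K228E versus WT embryos. No member that follows the naming rule had an unadjusted p under 0.05 by limma in either comparison.

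Of 16 enzymes of the citric acid cycle, 5 were higher in Tbr1+/K228E and 2 in Tbr1K228E/K228E embryos than in WT embryos, with medians of -0.02 in both. Of 17 glycolysis genes, 4 and 6 were higher, with medians of -0.07 and -0.01. Of 77 mitochondrial ribosomal proteins, 49 and 44 were higher, with medians of 0.01 in both. Of 80 tested cytosolic ribosomal proteins, 79 were higher in Tbr1+/K228E and 60 in Tbr1K228E/K228E embryos, with medians of 0.05 and 0.02. Low values in the male WT embryos 4 and 5 lay behind these counts, with mean log2 deviations of these proteins of -0.12 and -0.24. WT embryos 1, 2 and 3 were at 0.06, 0.09 and 0.03. The Tbr1+/K228E embryos lay between 0.00 and 0.08 and the Tbr1K228E/K228E embryos between -0.09 and 0.14. In Tbr1K228E/K228E versus Tbr1+/K228E embryos, 9 of these 80 were higher, with a median of -0.03. The summed citric acid cycle value was highest in WT embryo 4 (64353), Tbr1+/K228E embryo 1 (61607), WT embryo 1 (59923) and Tbr1K228E/K228E embryo 1 (59691), the embryos in which the OXPHOS subunit genes were also highest. The cytosolic ribosomal proteins ordered the embryos differently, with the lowest sum in WT embryo 4 (578670) and the highest in Tbr1K228E/K228E embryo 1 (704420).

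Between the sexes, 0 of 79 members passed the threshold in a fit with genotype and sex, against 0.0788% of all tested genes. Of the 79 members, 14 were higher in the 6 males than in the 9 females, with a median of -0.03 on the log2 scale, against 0.00 over all tested genes. An unadjusted p under 0.05 was found for 5 members, against 11.0% of all tested genes. Ndufb4, Ndufa2, Cox7a2l and Cox7c had lower means in males, and Ndufa5, an accessory subunit of complex I, had a higher mean. Ndufb4 had a mean of 165 in males and 207 in females, with a log2 difference of -0.33 (SE 0.08; limma, adjusted p = 0.410). Of the 6 males, 5 lay below every female for this gene, and WT embryo 5 lay above 2 of the females. Its value is uncertain because of the pseudogene named above. Beside these values, 14 of 14 markers of dividing cells had lower means in males (median -0.32), as had 78 of 80 cytosolic ribosomal proteins (median -0.10) and 13 of 14 Hox genes (median -1.24). In these lists 0 genes passed the threshold by limma, and 11, 43 and 0 of them had an unadjusted p under 0.05. Also lower in males were 13 of 13 meningeal (median -0.25) and 9 of 9 erythroid markers (-0.42). So were 9 of 10 forebrain (-0.25) and 7 of 8 choroid plexus markers (-0.81). Higher in males were 8 of 10 neuron markers (0.06) and 12 of 17 glycolysis genes (0.04). The same held for 11 of 13 subunits encoded by mitochondrial DNA (0.05) and 12 of 16 citric acid cycle enzymes (0.02). In these further lists 0 genes passed the threshold. Adding the scores of the Hox and meningeal markers to the fit gave 32 of 79 members higher in males, whereas correction for transcript length gave 28 and upper-quartile rescaling gave 9. In the fit with marker scores 0 members passed the threshold, against 0.115% of all tested genes, and 7 had an unadjusted p under 0.05, against 21.5% of all tested genes. Of these, Atp5g1, Cox6c, Ndufa5 and Sdhd were higher and Cox7a2l, Ndufa2 and Ndufb4 lower in males, and Cox7c was no longer among them. In the fit without these scores, the number of members higher in males was 25 without WT embryo 5 and 23 without Tbr1+/K228E embryo 1. The part of these markers in the values of the OXPHOS subunit genes by sex was not tested beyond the fit with marker scores.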

How the data were processed

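Processed RNA-Seq values of 15 embryos were used. The authors estimated reads per transcript with Salmon 0.11.2, summed them per gene with tximport and normalized them with DESeq2 1.22.2 in R 3.5.3. The deposited values are thus normalized read estimates (a signal, not whole counts), with neither library depth nor annotation version given. Of the 19475 Ensembl identifiers, 19469 matched GENCODE M21 (GRCm38). The members and gene lists were chosen with earlier results of these data known. The 16507 genes that reached a mean of 5 were compared on log2(value + 1) with limma 3.58.1 (R 4.3.3; a fit of the 3 genotypes with trended empirical Bayes) and Benjamini-Hochberg adjustment over all of them. The fit was tested on simulated data, but the outcome is not given here and no result rests on it. A fold change on this scale understates the change of low genes. Single genes were also compared with two-sided exact permutation tests, which with 5 against 5 embryos cannot give a p below 0.00794. Nothing in the labels names litters, so that p-values measure only the spread between these embryos. The genes named were main, isoform and X-linked subunits, those highest or lowest per kb and those with the smallest p in each complex, and the leading genes of marker lists. Genes named for their spread or sex difference were chosen after their values were seen. Level per kb used the median length of the protein-coding transcripts of a gene. Other pseudocounts, filters, normalizations, covariates, variance models and sets of embryos were tried as alternatives. Tables were joined in Python 3.11.15 with pandas 2.3.3.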

Additional observations from a re-analysis of the deposited data

Results flagged for a closer look

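The groups of 5 embryos were examined for a single value far from the other 4 for each named gene and marker sum, by Dixon's ratio. Of 132 groups, 6 had such a value, and chance flags about 1 in 20 groups. Among WT embryos, Atp5g2 had a normalized read count of 2154 in 1 embryo, against at most 1723 in the others, and Uqcrfs1 one of 2321, against at least 2544. Among Tbr1+/K228E embryos, Atp5l was at 1955 in 1 embryo, against at least 2081 in the others. The summed Hox value of Tbr1+/K228E embryo 1 was 3963, against at most 9.80 in the other embryos of that genotype. In Tbr1K228E/K228E embryos, Cox4i1 was at 6754 in embryo 1, against at most 6149 in the others, and Cox6b1 at 3347 in 1 embryo, against at most 3045.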

How the results depend on the processing

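In every alternative that was run, 0 OXPHOS subunit genes passed the threshold (limma). In Tbr1+/K228E versus WT embryos 0 of all tested genes passed in any of these fits, so that the count of members says nothing particular about them there. Their smallest adjusted p over the 25 fits of each comparison was 0.944 in Tbr1+/K228E versus WT, 0.596 in Tbr1K228E/K228E versus WT and 0.904 in Tbr1K228E/K228E versus Tbr1+/K228E embryos, and 0.0754 over the 27 fits of males versus females. The count of all genes called in Tbr1K228E/K228E versus WT embryos was 21, 12 with only these genotypes in the fit, and 28 with Hox and meningeal scores as covariates. It was 12 to 21 when single embryos were left out (12 or 13 without WT embryo 1 or 2 or Tbr1K228E/K228E embryo 3 or 4). In Tbr1K228E/K228E versus Tbr1+/K228E embryos it was 13, and 6 to 8 when any single embryo was left out. The replicate numbers were not taken to pair the embryos, since nothing in the labels names litters. In each comparison at least 1 same-numbered pair had deviations with a correlation under 0.1, which does not exclude pairing. Embryos 1 to 3 were female and 4 and 5 male in every genotype. The deviations were not adjusted for sex, so that these correlations cannot separate sex from pairing. The mean correlation of same-numbered and of other embryos was 0.07 and -0.02 in Tbr1+/K228E versus WT, 0.24 (single pairs from 0.02 to 0.51) and -0.06 in Tbr1K228E/K228E versus WT, where 5 of 10 embryos correlated best with their own number, and 0.01 and -0.00 in Tbr1K228E/K228E versus Tbr1+/K228E embryos; a fit that took the number as a replicate block called 2 genes in the last comparison and 16 in Tbr1K228E/K228E versus WT embryos. The number of members higher in Tbr1K228E/K228E than in WT embryos was 23 to 53 when single embryos were left out, and in Tbr1K228E/K228E versus Tbr1+/K228E embryos it was 13 to 54. The cause of these shifts was not tested. By longest transcript, the median levels per kb of complexes I, II, III and V were 1333.6, 1847.2, 2224.0 and 2814.8. The principal transcript length and the normalizations used for the range between embryos were chosen after seeing the data. Fits of the sex difference with the replicate block or only 2 genotypes were not run. Because library depth was not given, the counting error of low genes such as Cox6a2 and Cox7b2 is unknown.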
